A study of Mus musculus with 6 samples.

Results

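Genes of immune receptors, cytokines and their first signal transducers made up 199 of the 13002 alternative processing events on the array, in 126 of 7788 genes. They were chosen by symbol: CD antigens, interleukins, Toll-like receptors, H2 genes of the major histocompatibility complex (MHC), chemokines, the tumour necrosis factor (TNF) superfamily, interferon-induced genes and interferon regulatory factors, IRAK kinases and TRAF adaptors, Fc receptors, Ly antigens, and SLAM, Siglec and C-type lectin receptors. Slamf7 was left out, as were 2 events of 1 gene inside the congenic interval on chromosome 19. Intensities were listed for 198 of the events, in 125 genes, beside 12948 events in 7766 genes overall. The event of Clec4a3 had none.

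Whole brains came from 6 mice of the B6.CAST congenic line, 3 homozygous for the CAST allele of Nxf1 and 3 homozygous for its B6 allele. Nxf1 encodes the main export receptor for mRNA, and the array comparison asked whether its alleles change alternative processing. The mice formed 3 same-sex littermate pairs, each with both genotypes, and 2 of the pairs were female. One female pair was 46 days old and the other 23 days, and in the male pair the Nxf1 B6 mouse was 22 and the Nxf1 CAST mouse 23 days old. All carried the B6 background, and the CAST homozygotes also carried the linked CAST DNA around Nxf1, so that effects of Nxf1 and of its neighbours cannot be told apart. Each brain RNA was hybridized to 1 MJAY array, a splicing-sensitive Affymetrix design with probe sets for the alternative paths of an event.

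The table gives 4 intensities for an event, those of the exclusion path and of the inclusion path in sets called A and B. Each had been pooled over the arrays of a set. From the sign definition in the table, set B was likely Nxf1 CAST and set A Nxf1 B6, although the sets are not named by genotype. With 1 pooled value per set there was no replicate error, so no difference below has a test, an SD or a confidence interval, and none can be said to exceed the spread between mice. In whole tissue, fewer cells of a type and less RNA per cell cannot be told apart. For the labelled tissue, the markers of neurons, oligodendrocytes and astrocytes were bright on the array. Their median summed intensities lay at percentile 99.0 of all events for 4 neuronal genes, 98.4 for 3 oligodendrocyte genes and 96.8 for 5 astrocyte genes. Those of microglia (4 genes) and endothelium (2 genes) were dim, at percentiles 29.0 and 26.8.

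Cytokines and chemokines bind receptors on the cell surface, and TRAF adaptors and IRAK kinases pass the signal on to transcription factors such as NF-kB and the interferon regulatory factors. Many of these genes make soluble and membrane forms, or alternative first exons, from 1 locus. In brain, microglia are the main resident immune cells, and most of these genes are expressed far more strongly in lymphoid tissue.

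Most immune events were dim in brain. The sum of exclusion and inclusion intensity, averaged over the sets, had a median of 446 in arbitrary array units (quartiles 316 to 754), against 726 for all events (quartiles 430.5 to 1324). The median immune event lay at percentile 26.5 of all events, and 144 of 198 (72.7%) lay below the median of all. Of the immune events 42 (21.2%) were among the dimmest 10% of events and 6 (3.03%) among the brightest 10%. The lowest intensity in the table was 43 and no detection limit is given, so a path near 100 cannot be told from an undetected one. In 76 of the 198 (38.4%) the lowest of the 4 intensities was under 109, as it was in 24.9% of all events. Intensities of different probe sets also depend on how well the probes bind, so these ranks describe the array and are not expression levels between genes.

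**Figure D1:**
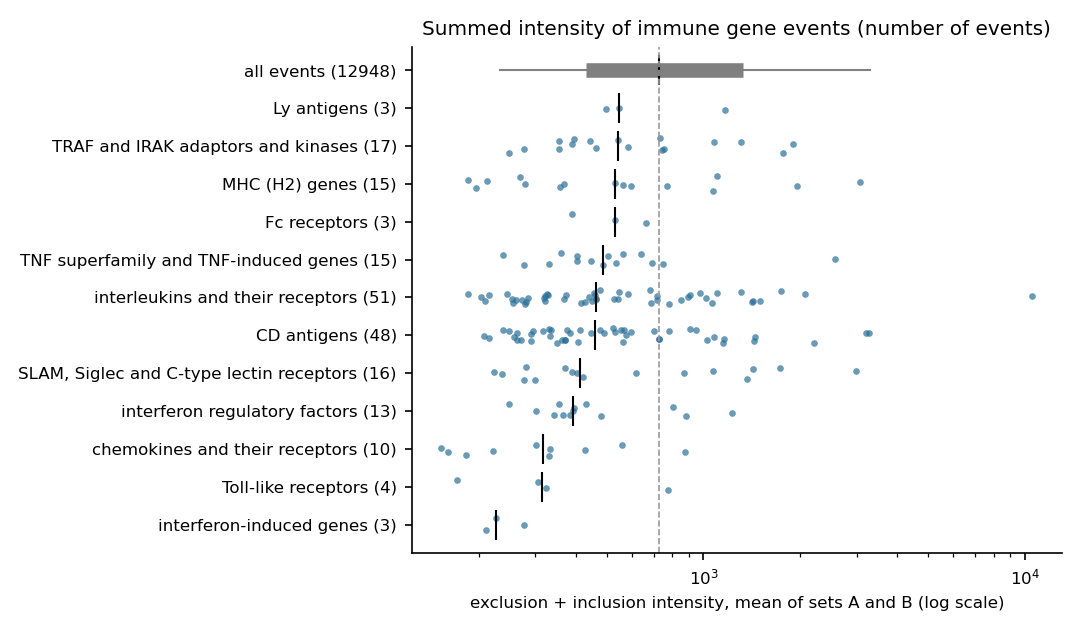
Summed exclusion and inclusion intensity (mean of sets A and B, log axis) of each immune event by family, with the number of events in parentheses and a black tick at each median. The grey bar spans the quartiles and the grey line percentiles 5 to 95 of all 12948 events. The dashed line marks their median of 726, and the median of every family lies to its left.

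The dimmest events belonged to chemokines and receptors of inflammation. Ccl20, a chemokine that attracts lymphocytes, had 150 units in set A and 155 in set B. Cxcl10, an interferon-induced chemokine, had 157 and 164. Tlr1, a receptor for bacterial lipopeptides, had 163 and 179, and Cxcl2, a neutrophil attractant, had 165 and 200. The complex event of Il1rl1, the receptor for interleukin 33, had 177 and 193. By family, the median percentile was lowest for 3 interferon-induced genes (4.43), for 4 Toll-like receptor events (13.0) and for 10 chemokine events (13.2). It was highest for 3 Ly antigen events (35.6), and no family median reached that of all events.

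Several of the brightest events belonged to genes that most cells express. The start event of Il4i1, an amino acid oxidase, was the brightest at 10695 in set A and 10439 in set B. One cassette event of Cd47, the "do not eat me" signal found on most cells, had 3279 and 3261. Cd63, a tetraspanin of late endosomes, had 3126 and 3288. The alternative end of H2-Q6, a class I gene, had 3154 and 2978. The start event of Clec16a, a regulator of mitophagy named for its lectin-like domain, had 3116 and 2873. These were followed by a cassette event of Tnfrsf12a, the receptor for the cytokine TWEAK, with 2400 and 2720. The largest difference between the sets among these 6 sums was 0.18 on the log2 scale.

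The isoform shift of an event was the ratio of its exclusion to its inclusion intensity in set B, divided by the same ratio in set A and taken on the log2 scale. A shift above 0 therefore means relatively more of the exclusion path in set B. The study used a fold of 0.5 together with a cutoff on the false discovery rate. Here the fold was applied alone, so the counts below are not comparable to the calls of the study. An absolute shift over 0.5 was passed by 18 of the 198 immune events (9.09%), where 7.34% of all events passed it. The exclusion path was relatively higher in set B in 11 of 192 events with an exclusion path (5.73%), against 4.51% of all. The inclusion path was relatively higher in 6 (3.13%), against 2.72% of all, and 1 complex event had no direction. These shares lay near the background. The median absolute shift was 0.18 in the immune events and 0.18 in all events. Shifts were above 0 in 92 and below 0 in 100 immune events (47.9% above), where 55.3% of all events were above 0. Counted by gene, 18 of 125 (14.4%) had an event past the fold, against 11.7% of all genes. With 50 added to each intensity 9 of the 18 were still past the fold: Traf7, Il12b, Il33, Cd68, H2-T10, Tnfsf12, Il4i1, Il1r1 and Irak2. Of all events 3.18% passed with 50 added, against 7.34% without.

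Over all events, dimmer ones passed the fold more often. All events were divided into 4 classes of about equal size by the intensity of the dimmer path. From the dimmest class to the brightest, the share past the fold in all events was 8.70%, 8.15%, 7.17% and 5.32%. In the immune events it was 7 of 71 (9.86%), 5 of 64 (7.81%), 3 of 40 (7.5%) and 3 of 23 (13.0%), so the few in the brightest class had the highest share. The 3 in the brightest class were Cd63, Irak2 and Il17d. In 12 of the 18 past the fold the dimmer path moved more than the brighter (66.7%), as it did in 62.9% of all events past the fold. The part that dim probe sets play in the shifts was not tested.

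**Figure D2:**
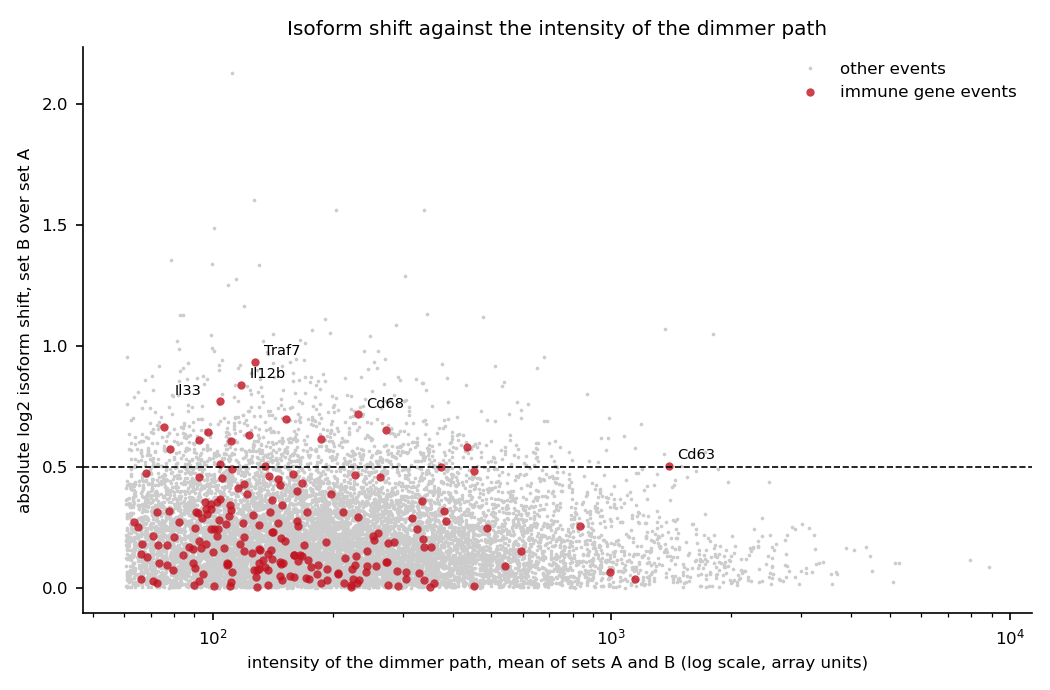
Absolute isoform shift (log2, set B over set A) against the intensity of the dimmer path of the event (mean of both sets, log axis), with immune events in red and all other events in grey. The dashed line is the fold of 0.5. Immune events follow the spread of the others, the largest being Traf7 at 0.94, and Cd63 stands furthest to the right of those past the line.

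Interleukins and their receptors held 7 of the 18 shifted events, among 51 events in 30 genes (13.7%, against 7.34% of all events). Of these, 4 were alternative start events, in Il33, Il1r1, Il4i1 and Il24. Il33 encodes a nuclear cytokine that is released when cells are damaged and is made by glia in brain. Its exclusion path was listed at 90 in set A and 119 in set B, while its inclusion path was at 421 and 326, for a shift of 0.77. Both paths thus moved, in opposite directions, and the inclusion path was the brighter in both sets. At 90 in set A the exclusion path cannot be told from an undetected one. Il1r1 encodes the receptor that carries the interleukin 1 signal. Its exclusion path had 280 in set A and 404 in set B, while its inclusion path had 192 and 181, a shift of 0.61, so that nearly all of the difference lay in the exclusion path. The sums of Il33 differed by -0.20 and those of Il1r1 by 0.31 on the log2 scale.

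For Il33 and Il1r1 RefSeq (build GRCm38.p6) lists 2 starts each, 20677 bases apart in Il33 and 41506 apart in Il1r1. The array event spans 24523 bases in Il33 (chromosome 19, 29999626 to 30024149, plus strand) and 57153 in Il1r1 (chromosome 1, 40281924 to 40339077, plus strand), as listed in the table, whose build is not stated. Which RefSeq start belongs to which path could not be settled. The windows from 250 bases before to 50 bases after each start are shown because the shifts in these genes are between first exons. Capitals mark TATAAA, the core of the TATA box, and GGGCGG, the GC box, on either strand. They do not overlap here.
Il33, upstream start, chr19:29924863-29925162, plus strand: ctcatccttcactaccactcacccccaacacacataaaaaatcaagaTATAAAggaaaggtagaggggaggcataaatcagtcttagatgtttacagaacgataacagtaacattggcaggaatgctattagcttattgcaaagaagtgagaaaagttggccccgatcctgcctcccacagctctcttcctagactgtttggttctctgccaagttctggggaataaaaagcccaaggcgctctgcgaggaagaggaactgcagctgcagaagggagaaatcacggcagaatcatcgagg
Il33, downstream start, chr19:29945540-29945839, plus strand: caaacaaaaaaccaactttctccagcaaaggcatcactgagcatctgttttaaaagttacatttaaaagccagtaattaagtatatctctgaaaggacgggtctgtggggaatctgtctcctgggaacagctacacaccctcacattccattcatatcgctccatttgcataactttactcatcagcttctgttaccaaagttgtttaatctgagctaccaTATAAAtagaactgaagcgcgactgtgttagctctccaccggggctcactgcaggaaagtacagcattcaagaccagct
Il1r1, upstream start, chr1:40224830-40225129, plus strand: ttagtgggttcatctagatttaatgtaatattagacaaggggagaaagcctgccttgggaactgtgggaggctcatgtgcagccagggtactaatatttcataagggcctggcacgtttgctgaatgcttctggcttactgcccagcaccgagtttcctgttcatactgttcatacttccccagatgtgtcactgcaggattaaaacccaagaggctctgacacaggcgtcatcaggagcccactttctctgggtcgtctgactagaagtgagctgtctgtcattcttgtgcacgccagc
Il1r1, downstream start, chr1:40266336-40266635, plus strand: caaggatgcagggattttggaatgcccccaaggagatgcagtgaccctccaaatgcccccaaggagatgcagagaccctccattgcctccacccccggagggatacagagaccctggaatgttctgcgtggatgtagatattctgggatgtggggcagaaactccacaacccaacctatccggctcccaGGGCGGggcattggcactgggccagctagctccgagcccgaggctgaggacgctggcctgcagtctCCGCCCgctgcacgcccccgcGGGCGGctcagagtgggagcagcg
The 2 windows of Il33 each hold 1 TATAAA, which 13.6% of all 32851 RefSeq windows of this length hold. In the upstream window it stands far before the start, and in the downstream window shortly before the start. The GC contents of these windows were 46.3% and 42.3%. The windows of Il1r1 differed more: the upstream one had 49.3% GC with neither motif, and the downstream one 63.3% GC, 14 CpG dinucleotides and 3 GGGCGG. That motif was found in 35.7% of all windows, and the median GC content of all windows was 52.7%. These are matches of letters and not mapped binding sites.

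The start event of Il4i1 was far less even. Its exclusion path had 119 in set A and 187 in set B, against 10576 and 10252 for the inclusion path, a shift of 0.70. Nearly all of the difference lay in the dim path. RefSeq lists a longer gene over this locus, Il4i1b, whose start lies 19918 bases before that of Il4i1 and 282 after that of Nup62, a nuclear pore gene that most cells express. The array event spans 19897 bases (chromosome 7, 52071789 to 52091686 as in the table). Its bright path can therefore not be assigned to Il4i1 alone. The start windows of both genes are shown because they differ strongly in base content, with GGGCGG in capitals.
Il4i1b, chr7:44816120-44816419, plus strand: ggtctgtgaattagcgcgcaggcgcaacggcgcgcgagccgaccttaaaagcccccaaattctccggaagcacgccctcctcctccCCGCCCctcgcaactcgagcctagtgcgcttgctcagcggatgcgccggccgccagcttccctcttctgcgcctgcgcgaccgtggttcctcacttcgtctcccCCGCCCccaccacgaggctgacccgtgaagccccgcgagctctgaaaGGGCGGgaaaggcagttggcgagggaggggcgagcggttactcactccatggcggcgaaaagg
Il4i1, chr7:44836038-44836337, plus strand: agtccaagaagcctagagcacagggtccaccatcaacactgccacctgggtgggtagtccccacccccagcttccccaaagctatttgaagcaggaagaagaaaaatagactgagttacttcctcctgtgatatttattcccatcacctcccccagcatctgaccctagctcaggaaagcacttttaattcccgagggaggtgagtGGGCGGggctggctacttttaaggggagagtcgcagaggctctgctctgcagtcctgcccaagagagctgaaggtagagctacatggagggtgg
The Il4i1b window had 67.3% GC, 34 CpG dinucleotides and 3 GGGCGG, whereas that of Il4i1 had 54.0% GC, 3 CpG dinucleotides and 1 GGGCGG. The other 3 events of Il4i1, with sums from 245 to 1738, had shifts from -0.32 to 0.05.

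Among the other interleukin events the lowest shift of all immune genes was that of Il12b, the subunit shared by interleukins 12 and 23. Its alternative 5′ splice site had an exclusion path at 136 in set A and 100 in set B, with an inclusion path at 215 and 283, a shift of -0.84. Il24, a cytokine of the interleukin 10 family, had 129 and 141 on the exclusion path but 1456 and 1122 on the inclusion path, a shift of 0.50. Here the brighter path moved more than the dimmer. Il17d, a cytokine of the interleukin 17 family, had 600 and 439 against 368 and 381 in a complex event, a shift of -0.50.

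Il15ra, which presents interleukin 15 to neighbouring cells, had 6 events that did not run together. A complex event had an exclusion path at 93 in set A and 129 in set B, with an inclusion path at 224 and 204, a shift of 0.61. Its alternative end shifted by -0.46, with 152 and 125 against 297 and 336. Of its 5 events with an exclusion path, 1 was above 0 and 4 were below. Il18bp, a secreted decoy that binds interleukin 18, was more even: all 5 events lay above 0, between 0.29 and 0.48, and none passed the fold. The nearest to it was a cassette exon with an exclusion path at 372 in set A and 533 in set B, with an inclusion path at 602 and 617. They come from 1 gene and need not be independent of each other.

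CD antigens held 4 shifted events among 48 in 29 genes (8.33%, against 7.34% of all events). Cd68, a lysosomal protein of macrophages and microglia, had an alternative 5′ splice site with an exclusion path at 914 in set A and 940 in set B. Its inclusion path was at 172 and 291, a shift of -0.72. The exclusion path was the brighter in both sets, and the difference lay in the dimmer one. A cassette exon of the same gene had a shift of 0.16, and the sums of both events were higher in set B by 0.18. Cd63 had 1220 and 1565 on the exclusion path of its start event and 1906 and 1723 on the inclusion path, a shift of 0.50. Of the events past the fold it had the brightest dimmer path. Cd99l2, an adhesion protein related to CD99, had 84 and 111 against 1059 and 896 in a cassette exon, a shift of 0.64. A second cassette exon of Cd99l2, with all 4 intensities over 900, had a shift of 0.06. Cd200r3, of the CD200 receptor family, had a complex event without an exclusion path. One of its paths had 69 in set A and 87 in set B, while its reference path had 184 and 156, a ratio of 0.57. Its other 2 paths had ratios of 0.34 and 0.24, and the mean of 0.38 lay within the fold. Members of that receptor family are close copies of each other, so their probe sets may read more than 1 of them.

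Cd44, an adhesion receptor with variable exons, had 6 events, and none passed the fold. Their shifts ran from -0.39 at the alternative end to 0.21 at a cassette exon, and 3 of the 4 complex events had -0.02, -0.003 and 0.02. Their sums ran from 257 to 524. Cd47, also known for alternative cassette exons near its 3′ end, had 3 cassette events with shifts of -0.09, 0.04 and 0.17.

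MHC genes held 2 shifted events among 15 in 11 genes (13.3%, against 7.34% of all events), 5 above 0 and 9 below. H2-T10, a nonclassical class I gene, had a cassette exon with an exclusion path at 377 in set A and 565 in set B, with an inclusion path at 125 and 121, a shift of 0.63. Its alternative 3′ splice site had 130 and 189 against 596 and 625, a shift of 0.47, and its alternative end a shift of -0.21. H2-K1, a classical class I gene, had a retained intron with 277 and 229 against 96 and 113, a shift of -0.51. Class I genes are near-identical copies, and events of H2-T10 lie inside one of H2-T23 in the table, so which gene these probe sets read is uncertain. Class II genes and their partners did not pass the fold: H2-Aa had a shift of -0.37, H2-Ob -0.18 and H2-DMb1 0.05. H2-Ke6 (-0.06) carries an H2 name for its place in the locus and encodes an enzyme of steroid and fatty acid metabolism.

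Chemokines held 2 shifted events among 10 in 8 genes (20%, against 7.34% of all events), both dim. The retained intron of Cxcl10 had an exclusion path at 74 in set A and 96 in set B, with an inclusion path at 83 and 68, a shift of 0.66. The alternative 3′ splice site of Ccl1 had 103 and 82 against 116 and 141, a shift of -0.61. A path on chromosome 4 stands under the same event name, and the mean over all its paths was -0.27, within the fold. In Cxcl10 the path that was brighter in set A was the dimmer in set B, in Ccl1 the inclusion path was brighter in both sets, and no intensity exceeded 141. Ccr7 and Ccr9, receptors that guide lymphocytes, had shifts of -0.07 and -0.15, and Cxcl12, a chemokine made in brain throughout life, had -0.06.

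TNF superfamily and TNF-induced genes held 1 shifted event among 15 in 11 genes (6.67%, against 7.34% of all events). The alternative end of Tnfsf12, which encodes TWEAK, had an exclusion path at 331 in set A and 213 in set B, with an inclusion path at 287 and 290, a shift of -0.65. Nearly all of the difference lay in the exclusion path, and the start event of the gene had a shift of 0.01. RefSeq lists a readthrough gene over Tnfsf12 and its neighbour (Tnfsfm13), which an end event can also read. The receptor of TWEAK, Tnfrsf12a, had a shift of -0.09. In the family 4 shifts were above 0 and 11 below, with all 3 events of Tnfrsf19, a receptor of neural progenitors, below 0 (-0.30, -0.23 and -0.01).

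**Figure D3:**
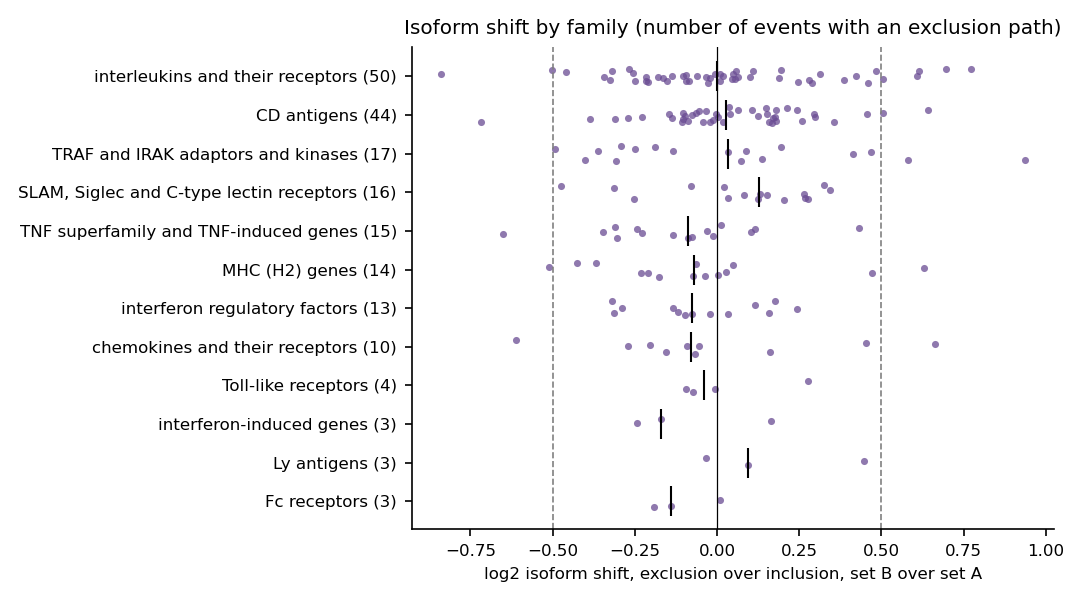
Isoform shift of each immune event with an exclusion path (log2, exclusion over inclusion, set B over set A) by family, with the number of events in parentheses and a black tick at each median. Dashed lines mark 0.5 in each direction. Interleukins and CD antigens spread to both sides of 0, and the family medians lie within 0.17 of 0.

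Signal transducers held 2 shifted events among 17 in 9 genes (11.8%, against 7.34% of all events), and the highest shift of all immune genes was theirs. A cassette exon of Traf7, a ubiquitin ligase that acts with the kinase MEKK3, had an exclusion path at 92 in set A and 164 in set B, with an inclusion path at 1837 and 1712, a shift of 0.94 (chromosome 17, 24651162 to 24653449, minus strand, as in the table). It ranked 43 of 12948 events by absolute shift. The exclusion path stayed the minor one in both sets, and at 92 in set A it cannot be told from an undetected one. The other 3 events of Traf7 had shifts of -0.29, -0.19 and 0.09. A complex event of Irak2, a kinase of interleukin 1 and Toll-like receptor signalling, had 336 and 532 against 629 and 666, a shift of 0.58. All 4 of its events lay above 0, from 0.03 to 0.58. The start event of Traf1, an adaptor of TNF receptors, fell just short of the fold at -0.49, with 118 and 105 against 147 and 184.

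**Figure D4:**
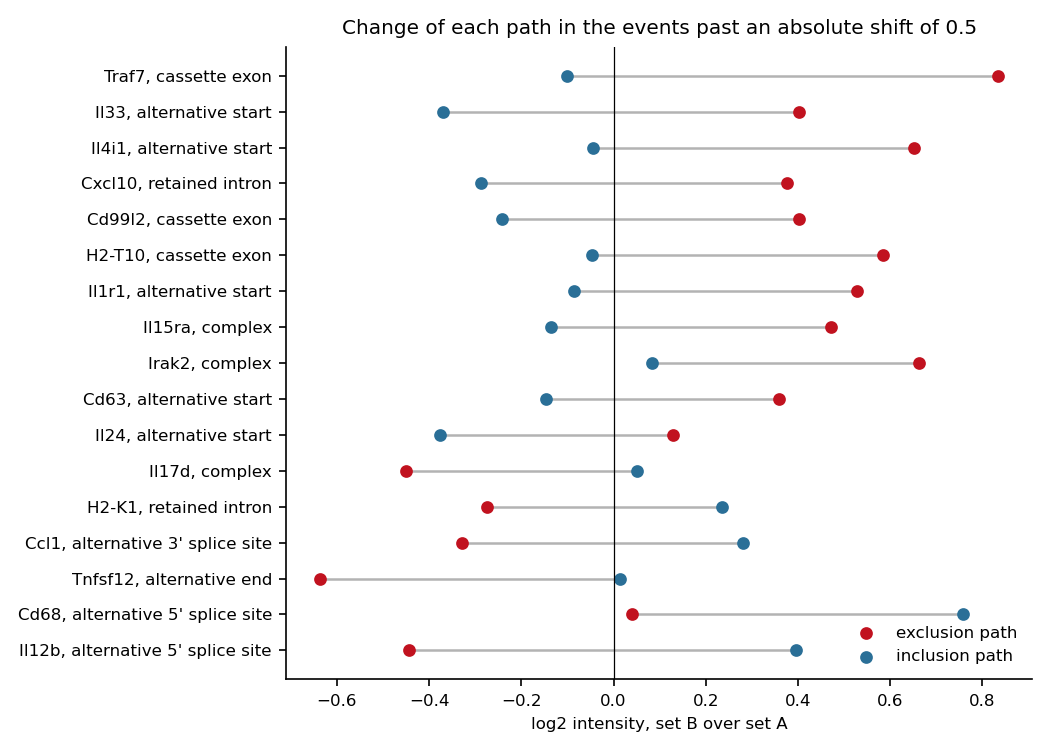
Log2 intensity in set B over set A of the exclusion path (red) and the inclusion path (blue) for the 17 immune events past the fold that have an exclusion path, ordered by isoform shift. In 15 the paths moved to opposite sides of 0, and in Irak2 and Cd68 both were higher in set B.

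Of the 17 events past the fold with a direction, 15 had paths that moved in opposite directions, as did 82.0% of the 909 such events overall. The events just past the fold were Il17d, Il24, Cd63 and H2-K1 with absolute shifts from 0.50 to 0.51. Just short of it were Traf1 (0.49), Il18bp (0.48), Siglech (0.48) and H2-T10 (0.47), so the fold divides events that hardly differ.

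Toll-like receptors, interferon regulatory factors, the 3 genes with an Ifi symbol, Fc receptors, Ly antigens, Siglecs and C-type lectins held none of the 18. The 4 Toll-like receptors with events ran from -0.10 in Tlr1 to 0.28 in Tlr3, the receptor for double-stranded RNA, with Tlr7 at -0.01 and Tlr8 at -0.07. Among 13 events of 7 interferon regulatory factors the shifts ran from -0.32 in Irf9 to 0.24, also in Irf9, the partner of STAT proteins. The start event of Irf1, the brightest of that family, had 1003 and 1113 against 171 and 168. The largest absolute shift of 3 interferon-induced genes was -0.24 in Ifi47, a GTPase. Fc receptors ran from -0.19 in Fcgr2b, the inhibitory receptor, to 0.01 in Fcgrt, the carrier that keeps antibodies in circulation. The largest of 3 Ly antigen events was 0.45 in Ly6h, a neuronal member of that family.

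Among 16 events of Siglec and C-type lectin genes, none of them with a SLAM symbol, 12 shifts were above 0 and 4 below. The largest in size was a cassette exon of Siglech, a receptor of microglia and plasmacytoid dendritic cells, with 76 and 60 against 338 and 371, a shift of -0.48. Its 3 other events were at 0.34, 0.13 and 0.03. The 4 events of Clec16a, with sums from 871 to 2995, ran from -0.25 to 0.28.

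By type of event, alternative starts made up 5 of the 18, among 30 immune events, where 6.32% of all starts passed the fold. Cassette exons made up 3 among 62, where 8.56% of all passed. Complex events with an exclusion path made up 3 among 24 (8.38% of all), retained introns 2 among 21 (9.87%) and alternative 5′ splice sites 2 among 6 (10.8%). Alternative ends made up 1 among 35 (2.78%), alternative 3′ splice sites 1 among 13 (9.09%), and complex events without an exclusion path 1 among 6 (10.6%).

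The summed intensity of exclusion and inclusion was then compared between the sets. An absolute log2 difference over 0.5 was found in 3 of 198 immune events (1.52%), against 0.811% of all events, and all 3 sums were higher in set B. None of the 3 passed with 50 added to each intensity, or when events with an intensity under 109 were left out. Of all events 0.309% and 0.669% passed in these 2 settings. A cassette event of Traf1 had a sum of 198 in set A and 297 in set B, a difference of 0.58. The retained intron event of Clec4e, the macrophage receptor Mincle, had 330 and 476, a difference of 0.53. A cassette event of Il7r, the receptor for interleukin 7, had 210 and 300, a difference of 0.51. All 3 were among the dimmer events, and the other events of Traf1 and Il7r differed by 0.13 and 0.22.

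Most immune sums were slightly higher in set B. They were higher in 138 of 198 events (69.7%), where 48.6% of all events were higher, with medians of 0.09 and -0.004 on the log2 scale. The share depended on brightness in both. Below the median sum of all events, 111 of 144 immune events (77.1%) were higher in set B, against 56.0% of all events. Above it, 27 of 54 were higher, against 41.3% of all events. In the dimmest 10% of all events, 36 of 42 immune events were higher, against 66.7% of all. The median differences below and above the median sum were 0.10 and -0.0005 in the immune events.

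**Figure D5:**
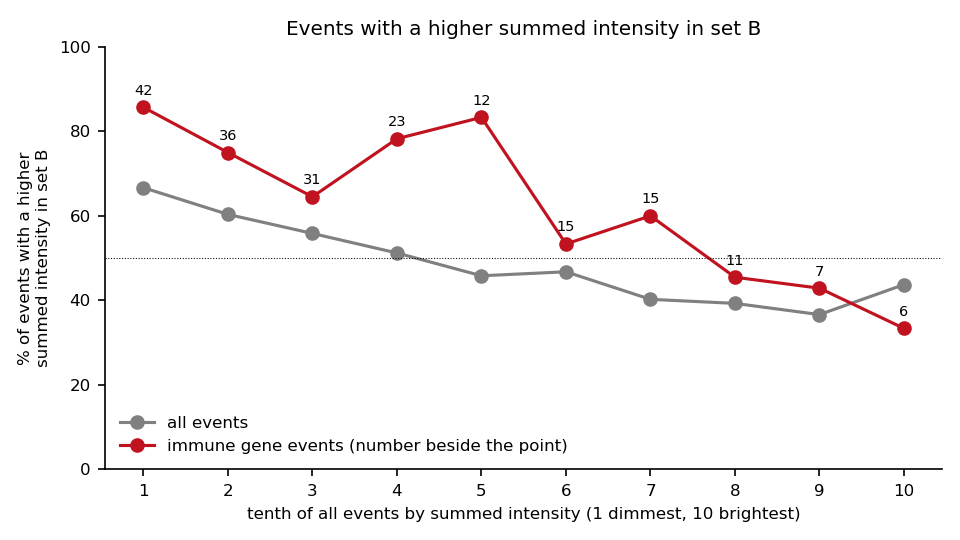
Share of events with a higher summed intensity in set B (vertical axis, percent) in 10 classes of equal size from the dimmest to the brightest, for all events (grey) and immune events (red, number of immune events above each point). The grey line falls from 66.7% in the dimmest class to 36.6% in the ninth, and the red points lie above it except in the brightest class, which holds 6 immune events.

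Some genes had 2 events that both ran higher in set B, where 69.7% of all immune events were higher. Among them were Il7r (differences of 0.22 and 0.51) and Irf5 (0.11 and 0.16). Siglec5, a sialic acid receptor, had sums of 1469 and 1991 for one event and 908 and 1234 for the other, differences of 0.44 each. It was the 1 immune symbol without a RefSeq match, so which gene its probe sets read is uncertain. Cd27, a costimulatory receptor of lymphocytes, had differences of 0.31 and 0.35, Tnfrsf9, a costimulatory receptor of T cells, 0.31 and 0.33, and Irf9 0.20 and 0.35. The 2 events of Siglec5, of Cd27 and of Irf9 overlap in position, so they need not be independent of each other. The lowest differences were those of Cd2ap, an adaptor of the cytoskeleton (-0.37), Irf2, a repressor of interferon genes (-0.34), Il24 (-0.33), Tnfsf12 (-0.30) and Tlr7, a receptor for single-stranded RNA (-0.28). The other events of Cd2ap, Irf2 and Tnfsf12 differed by -0.08, -0.02 and 0.02.

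Markers of cells that could carry these transcripts were measured in the same way. Of 14 genes listed as lymphocyte markers 5 had events, 6 in all. Their sums ran from 280 to 839 in set A and from 292 to 968 in set B. The sum was higher in set B in 5 of the 6, and the median difference was 0.17. Of 12 microglial markers 4 had 6 events, with sums from 269 to 733 in set A and from 276 to 731 in set B, higher in 4 of 6, with a median difference of 0.05. Of 5 endothelial markers 2 had 6 events, with sums from 244 to 1147 and from 298 to 1038, higher in 2 of 6. Of all events 48.6% were higher in set B, and 56.0% of those below the median sum. Sums were also higher in 5 of 7 astrocyte events, with a median difference of 0.10. They were higher in 1 of 4 neuronal events, in 3 of 8 oligodendrocyte events and in the 1 red cell event. The lymphocyte list shares Cd22 and Cd8a with the immune genes above. Its highest sums, 839 and 968, were those of Ptprc, which leukocytes other than lymphocytes also express. The part of cell composition in the sums was not tested.

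Genes further down the same pathways were also set beside the receptors. Of 64 genes of NF-kB, STAT, interferon and inflammasome signalling 29 had events, 42 in all, and 7 of the 42 passed the fold of 0.5 for the isoform shift, where 7.34% of all events did. Nfkb2, a subunit of the noncanonical NF-kB pathway, had the largest shift, 0.77 in a cassette exon. The exclusion path of that exon was at 260 in set A and 364 in set B, with an inclusion path at 336 and 275. The other events of Nfkb2 had shifts of 0.20, -0.05 and 0.003. Nfkbib, an inhibitor of NF-kB, had 92 and 91 against 1234 and 794 at its alternative end, a shift of 0.62. The dim exclusion path of Nfkbib cannot be told from an undetected one, and the sums differed by -0.58 on the log2 scale. Ifnar1, a subunit of the type I interferon receptor, had 0.58 in a retained intron. Syk, a kinase that acts behind Fc and lectin receptors, had 0.56 in a cassette exon, and its other events had -0.34 and 0.32. Relb, the partner of Nfkb2, had -0.68, Ikbkg, the regulatory subunit of the IkB kinase, -0.62, and Socs5, an inhibitor of cytokine signalling, -0.61. The median absolute shift in this list was 0.25, against 0.18 in all events. In microglial markers 1 of 6 events passed: Csf1r, the receptor that microglia need to survive, had an alternative 3′ splice site at 415 and 273 against 318 and 458, a shift of -1.13, with sums of 733 and 731. In that event the path that was brighter in set A was the dimmer in set B, with nearly equal sums, while the alternative end of Csf1r had a shift of -0.11. No event of the lymphocyte, endothelial, neuronal, astrocyte or oligodendrocyte lists passed. The red cell list had 1 event, in Alas2, a heme synthesis enzyme of erythroid cells, with a shift of 0.54.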

How the data were processed

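The authors deposited 1 table of pooled array intensities, made from Affymetrix MJAY arrays with 1 array per mouse. Total RNA was extracted with Trizol and RNeasy columns and labelled with the WT Terminal Labeling Kit. The submitters' processing notes name Affymetrix Power Tools, and the file header names the omniviewer software. Normalization, background correction, pooling over arrays and the genome build are not given in the sources used here. The same intensities stand under a paired and a standard comparison, whose scores on the log2 scale and q-values are the authors' own comparisons and were not used, apart from the sign of the paired score that showed which set is the numerator. Ratios from the deposited intensities ran with that sign in 18301 of 18303 paths with an absolute log2 ratio over 0.1.

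Paths were joined by event name, and an event took the largest absolute log2 ratio of its paths, with the sign of its exclusion path. For 37 names, Ccl1 and Il15 among the immune genes, a path on another chromosome stood under the same name. No filter, pseudocount or scaling was applied, and with values pooled per set no test was run. Members and lists were chosen with earlier results of these data known. Events named are those past a shift of 0.5, the extremes in shift and brightness overall and by family, those nearest the threshold, and other members by family. Genes with high or low sums, and signalling genes past the threshold other than Nfkb2, were named after their values were seen. Genes were listed by marker and pathway from general knowledge. Of 125 symbols RefSeq (GRCm38.p6) matched 121 directly and 3 by synonym, and Siglec5 was not matched. The computation was tested on simulated data. Python 3.11.15, numpy 2.4.6, pandas 2.3.3 and matplotlib 3.10.9 were used. Other ways of joining paths, other folds, filters on low intensity, an added intensity, and genes or paths in place of events were tried. The number of arrays, 3 per set, limits the precision, and values of single arrays were not analysed here.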

Additional observations from a re-analysis of the deposited data

How the results depend on the processing

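Of the immune events, 18 passed a shift of 0.5, and 16 to 19 did with the exclusion path alone, with the mean over paths, with a ratio of 1.4 as the fold, without 8 events whose symbols match by letters only, or by gene. The shares of all events at these settings ran from 7.04% to 8.10%, and 11.7% of all genes passed. Counted by path, 35 of 404 passed, against 7.06% of all paths. At an absolute log2 over 1, 0 of 198 passed, where 0.224% of all events did. Without events whose lowest intensity was under 109, 9 of 122 passed (6.44% of all), and with 50 added to each intensity 9 of 198 did (3.18% of all), with no direction turned in the 18. The smallest absolute shift among the 18 was then 0.39. The mean over paths took Ccl1 to -0.27, since a path on another chromosome stands under its name, and Cd200r3 to 0.38.

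The median percentile of intensity was 26.5 by the sum, 35.0 by the exclusion path, 32.7 by the inclusion path, 27.2 by the brightest event of each gene and 25.5 without the symbols that match by letters only. Sums past 0.5 were found in 3 events, but in 0 without the low intensities, in 0 with 50 added and in 1 gene by the mean of its events. Of all events 0.811% had sums past 0.5, with 0.669% without the low intensities and 0.309% with 50 added. Of all genes 0.592% did. Sums were higher in set B in 69.7% of the immune events, in 67.2% without low intensities, in 69.7% with 50 added, in 70.2% after centring on the median of all events and in 76.8% of genes. Over all events the shares were 48.6%, 47.3% without low intensities and 48.7% with 50 added, and over all genes 51.5%. No mouse could be left out. No paired analysis was possible because the intensity columns carry no pair numbers and hold values pooled over the mice of a set, and the scores of the authors' own paired comparison were not used.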
